A study of Mus musculus with 59 samples.

Results

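The transcripts described here are the noncoding RNAs that the annotation names after a gene on the other strand, such as Grin1os, Uchl1os or Dlx1as. They were chosen by name: genes with a noncoding RefSeq accession whose symbol ends in os, os1 to os9, as, -as or -as1, with Nespas left out, gave 123 genes from 142 transcript rows. Grin1os was added as the 124th because the selection names it, although its row carries a coding (NM_) accession. The whole table held 23978 genes. Of the 124 transcripts, 34 had a mean normalised value of at least 10 over the 12 libraries and were tested (27.4%, against 29.0% of all genes, 6952 of them). A further 67 had reads but a lower mean, and 23 had no read in any library. Prkag2os1 was the lowest transcript tested, with a mean of 10.3, and Hoxa11os was just below the limit, with a mean of 9.72.

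Zcchc8 is the zinc-knuckle scaffold of the nuclear exosome targeting (NEXT) complex, in which the helicase Mtr4 (gene Skiv2l2) and the RNA-binding protein Rbm7 hand nuclear RNA to the exosome for degradation. In human cells the complex is known for short-lived transcripts that start upstream of promoters, at enhancers and in introns. Antisense transcripts run across, next to or head to head with a gene on the other strand, and several are known to act on that gene's transcription, splicing or translation.

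The libraries are ribosomal RNA-depleted total RNA from mouse embryonic stem cells derived from BDF1 blastocysts. Zcchc8 KO cells and wild-type control cells were taken after 0, 4 and 8 h in Actinomycin D, which stops transcription, at 5 µg/ml, with ERCC spike-in RNA added to every library. Each of the 6 groups held 2 libraries, so 12 of the series' 59 samples were used. Neither the number of lines per genotype nor separate cultures for the replicates are stated, and the p-values therefore reflect library-to-library spread alone, which may be only technical.

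Counted reads per library ranged from 465324 to 1364523, and 1 read was worth 0.452 to 3.23 normalised units. A difference is called where its limma adjusted p, over all 6952 genes, is below 0.05, and adjusted p-values are limma's unless another tool is named. Zcchc8 itself had 25.3 and 5.29 units in KO and 59.3 and 77.5 in control at 0 h (log2 difference −2.42 ± 0.68, SE; limma adjusted p = 0.033), while at 8 h the groups overlapped. That call was lost without KO 0 h replicate 2 (−1.39; adjusted p = 0.509) and, narrowly, without either control 4 h library (adjusted p = 0.056 and 0.055), and edgeR did not make it (−2.13; adjusted p = 0.079). The 2 control 0 h libraries were offset by 0.81 in the median gene (log2, replicate 2 minus replicate 1), and the 2 KO 8 h libraries differed most for their depth (chi-square per degree of freedom 14.4, against 3.58 to 4.41 in the other groups). On the deposited scale the median gene was 0.44, 0.29 and 0.63 higher in KO at 0, 4 and 8 h (log2), and each of these medians was within 0.013 of 0 after rescaling by the trimmed mean of M values (TMM). Both scales are therefore given where they differ. Beside the genotype, summed levels of 11 fibroblast markers, 10 of them with a mean of at least 10, were 11186 to 19230 units in the 6 KO libraries and 6098 to 10519 in the 6 control libraries, and 5 of the 10 were called higher in KO at 0 h. The lowest difference among the 10 was then −1.51 (log2). Marker sums are on the deposited scale. After TMM rescaling 4, 1 and 0 of the 10 were called higher at 0, 4 and 8 h, with median differences of 0.76, 0.62 and 0.06. Summed levels of 11 embryonic stem cell markers, 9 of them with a mean of at least 10, were 986 to 3766 units in KO and 775 to 4399 in control. Summed neuroectoderm markers (3 of 6 with a mean of at least 10) were 131 to 359 units in KO and 88.2 to 168 in control. The 6 neuronal markers summed to 0 to 1.76 units in KO and 0.540 to 12.9 in control, at or near 0. Grin1, the sense gene of Grin1os, is one of the 6, and the other 5 summed to 0 in each library except control 8 h replicate 1 (0.540). The part of these markers in the results that follow was not tested, and in such bulk samples fewer cells of a type and less RNA per cell cannot be told apart.

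A GRCm38 gene annotation (GENCODE M21), a later build than the mm9 of the submitters' processing notes, was used to ask how the transcripts lie beside their genes. It placed 118 of the 124 with their sense gene, every one of the 118 on the opposite strand. Exons overlapped in 66, 29 lay within introns only and 23 did not overlap the gene. The start sites of 30 were within 1 kb of each other. Of the 34 tested, 33 could be placed: 28 overlapped exons, with a median of 11.5% of the antisense exon bases shared, Ppp2r2cos and Bcas3os1 lay in introns, and Fam120aos, Dbhos and Fbxl12os did not overlap. The annotation types 29 of the 34 as antisense and 1, Toporsos (Smim27 in RefSeq), as protein-coding. Gnas, Minos1 and Dos fit the naming rule but name no sense gene, and each had a mean below the limit for testing. Over the whole set, 97 symbols end in os, 25 in os1, os2 or os3 and 2 in as, and those 2 are Dlx1as and Gnas.

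RefSeq's GRCm38.p6 promoter table (250 bases before to 50 after each start) held windows for 27 of the 34 tested transcripts, 28 windows in all. They contained a median of 6 CG dinucleotides, from 1 to 54, against 7 over all 32851 promoters. 5 windows are shown because they belong to the transcripts whose values or position stand out below, with CG in capitals. Grin1os (chr2:25291008-25291307, plus strand) was the 1 transcript called lower in KO at 0 h, Ppp2r2cos (chr5:36876830-36877129, minus strand) had the largest difference at 8 h, and Toporsos (chr4:40269329-40269628, plus strand) declined most per hour in KO. The Fam120aos window (chr13:48967862-48968161, plus strand) and that of its sense gene Fam120a (chr13:48968011-48968310, minus strand) share 151 bases, so they are 1 region read from both strands.
Grin1os: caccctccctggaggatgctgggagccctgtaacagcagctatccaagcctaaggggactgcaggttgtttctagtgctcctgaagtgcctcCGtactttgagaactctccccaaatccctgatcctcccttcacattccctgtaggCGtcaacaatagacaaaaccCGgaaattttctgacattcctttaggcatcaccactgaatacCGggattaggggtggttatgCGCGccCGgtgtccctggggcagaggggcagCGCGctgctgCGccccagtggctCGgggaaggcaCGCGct
Ppp2r2cos: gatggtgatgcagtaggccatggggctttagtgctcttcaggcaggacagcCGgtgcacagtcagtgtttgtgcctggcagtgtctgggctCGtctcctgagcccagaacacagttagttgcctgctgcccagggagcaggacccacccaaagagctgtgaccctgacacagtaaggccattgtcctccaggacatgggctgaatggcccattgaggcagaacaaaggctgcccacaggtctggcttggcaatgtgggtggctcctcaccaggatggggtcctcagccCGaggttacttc
Toporsos: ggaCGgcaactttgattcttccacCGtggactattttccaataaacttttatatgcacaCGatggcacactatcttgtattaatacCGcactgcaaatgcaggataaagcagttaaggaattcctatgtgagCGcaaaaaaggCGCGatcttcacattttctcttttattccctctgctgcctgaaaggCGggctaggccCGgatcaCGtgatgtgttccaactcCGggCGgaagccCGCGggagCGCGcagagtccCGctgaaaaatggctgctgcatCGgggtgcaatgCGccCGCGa
Fam120aos: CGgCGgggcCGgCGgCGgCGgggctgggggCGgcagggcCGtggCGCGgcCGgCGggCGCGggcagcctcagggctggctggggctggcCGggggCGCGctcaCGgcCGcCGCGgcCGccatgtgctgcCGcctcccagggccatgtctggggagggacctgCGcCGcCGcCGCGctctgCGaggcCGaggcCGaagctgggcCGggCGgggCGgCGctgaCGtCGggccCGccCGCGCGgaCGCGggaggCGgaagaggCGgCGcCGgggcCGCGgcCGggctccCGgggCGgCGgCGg
Fam120a: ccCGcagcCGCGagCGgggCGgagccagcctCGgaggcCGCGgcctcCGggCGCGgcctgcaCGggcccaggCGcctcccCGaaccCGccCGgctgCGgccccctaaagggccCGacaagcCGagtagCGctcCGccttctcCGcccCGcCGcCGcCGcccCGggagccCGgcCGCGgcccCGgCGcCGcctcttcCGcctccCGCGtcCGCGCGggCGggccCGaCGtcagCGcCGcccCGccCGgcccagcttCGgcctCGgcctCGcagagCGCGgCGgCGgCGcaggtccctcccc
Grin1os had 13 CG, Ppp2r2cos 3, Toporsos 21 and the Fam120a pair 54 each. As many CG as in the Fam120a pair were found in 0.347% of all promoters, and as many as in Ppp2r2cos in 76.7%. TATAAA, the TATA box core, was found on either strand in 3 of the 28 windows, Toporsos among them, and in 13.6% of all promoters. AATAAA, the polyadenylation signal, was in 4 windows, Toporsos again among them, and in 19.6% of all promoters. GGTAAG, a 5′ splice site core, was in 2 windows and in 9.67% of all promoters. AATAAA and TATAAA can overlap by up to 2 bases, and a match is a description of the letters only.

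Antisense and sense values were compared per kb in the 77 pairs whose sense gene has a single RefSeq row, whose lengths are known and in which either gene had a read. The antisense transcript was the higher in 40 and the sense gene in 37. Which is higher differed with which gene passed the limit on low values. Among the 19 pairs with a tested antisense transcript it was the higher in 18, with a median ratio of 8.71 and a range of 0.650 (Fam120aos) to 620 (Dbhos). Among 22 pairs in which only the sense gene was tested the sense gene was the higher in 18. Where both genes were tested, the antisense transcript was the higher in every pair except that of Fam120aos. The ratios of the 19 therefore describe these pairs and not antisense transcripts in general. Scpep1os averaged 1881 units per kb over the 12 libraries, against 93.5 for Scpep1, a lysosomal carboxypeptidase. Zfhx2os averaged 253 units per kb, against 13.4 for the homeobox gene Zfhx2. Nphs1os and Nphs1 (nephrin, of the kidney's filtration barrier) were close, with 62.3 and 49.5 units per kb.

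Neighbouring coding genes on opposite strands were set side by side in the same way, in 6 pairs with shared exon bases. Snx22, a sorting nexin, averaged 2331 units per kb in KO and 2026 in control at 0 h, while Ppib, an abundant cyclophilin on the other strand, averaged 190 in KO and 182 in control. Ccdc38 averaged 906 units per kb in KO and 870 in control, against 125 in KO and 172 in control for Snrpf, a core spliceosome protein gene. In 1 of the 6 pairs the abundant gene was the higher, with 837 units per kb in KO and 727 in control for Cand2 and 3187 in KO and 2373 in control for the ribosomal protein gene Rpl32. These genes were chosen after their values were seen. No source used here gives the strand setting of the authors' counting, and reads of an antisense transcript and reads of RNA from the gene on the other strand cannot be told apart in this table. "Higher" and "lower" mean reads assigned to the named transcript. For 14 tested transcripts the sense gene has several RefSeq rows, and 12 of these sense genes had a mean below 10 (Tomm6, Chn1 and Tnk2 at 0 in all 12 libraries), so a low value there is not a measure of the gene's RNA.

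**Figure D1:**
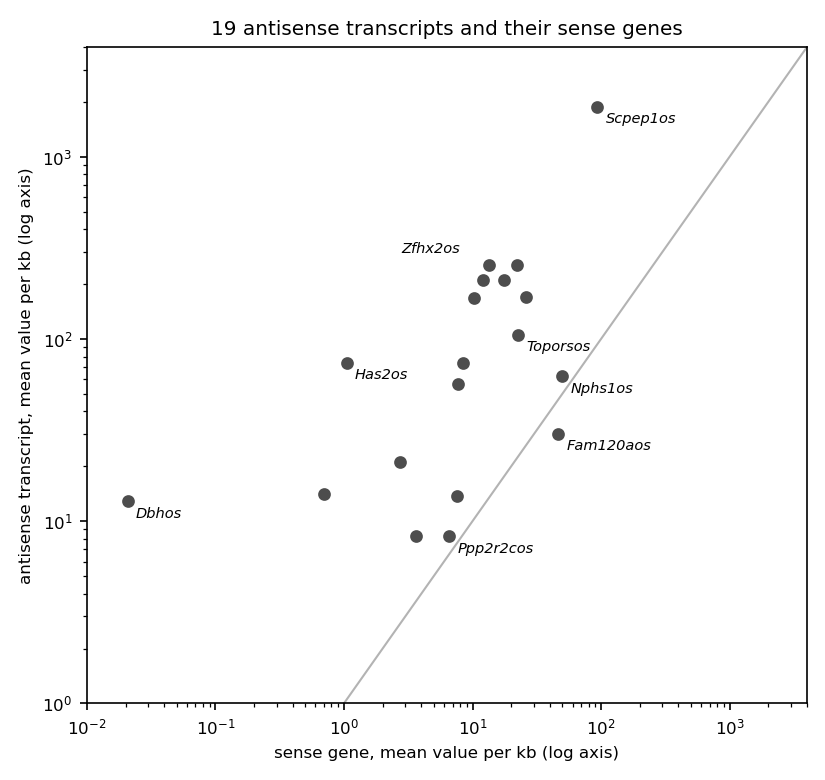
Mean value per kb over the 12 libraries of each antisense transcript (vertical, log axis) and of its sense gene (horizontal, log axis), for the 19 pairs whose sense gene has a single row; the grey line marks equal values. One pair lies below the line, Fam120aos, with a ratio of 0.650; the median ratio of 8.71 holds for pairs with a tested antisense transcript, and over all 77 pairs the antisense transcript was the higher in 40.

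A few transcripts carried most of the reads. Per kb, Scpep1os was followed by Rbm3os (936 units), Tomm6os (591), Rab10os (256) and Zfhx2os (253), while Peg3os, which averaged 1025 units in all, had no length in the annotation. The 5 transcripts with the highest means, Tomm6os, Scpep1os, Zfhx2os, Peg3os and Rbm3os, held 60.3% to 74.8% of the summed value of the 124 in every library. That sum was 0.850% to 1.60% of the KO library totals without Rn45s and 1.01% to 1.35% of the control totals, and the highest share, 1.60%, was in KO 8 h replicate 2. At the other end, the 67 untested transcripts with reads had a median of 19 reads over all 12 libraries. Untested transcripts included 23 whose sense gene was itself tested, and Atad3aos, Ctcflos and Frs3os had no read although their sense genes passed the limit.

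**Figure D2:**
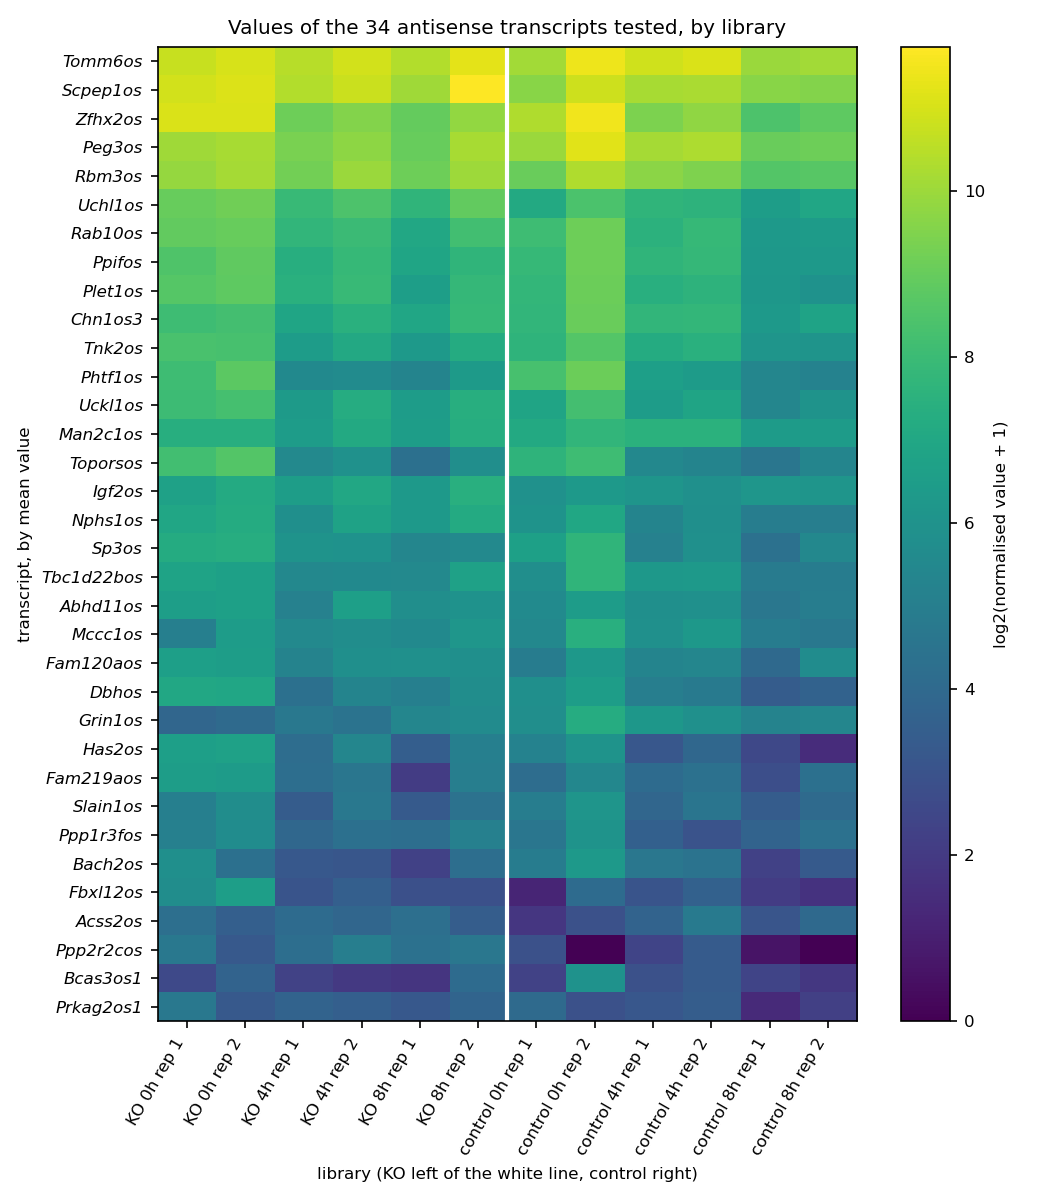
Normalised value of the 34 tested transcripts, as log2(value + 1) (colour), in each of the 12 libraries (columns, KO left of the white line and control right); rows run from the highest mean to the lowest. The top 5 rows hold 60.3% to 74.8% of the summed value, and control 0 h replicate 2 and KO 8 h replicate 2 are brighter than their partner libraries in most rows.

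Before transcription was stopped, 1 of the 34 transcripts was called higher in KO and 1 lower. Over all 6952 genes, 4.23% were called higher and 0.0719% lower (294 and 5 genes; after TMM rescaling 1.35% and 0.388%, or 94 and 27 genes). Grin1os was the transcript that was lower in KO. Its sense gene Grin1 encodes the obligatory subunit of the NMDA-type glutamate receptor. Grin1os had 13.5 and 15.9 units in KO (8 and 9 reads), against 55.3 and 155 units in control (42 and 48 reads), at 0 h. Both KO libraries were below both control libraries, and the control libraries differed from each other by more than the KO libraries did. The log2 difference was −2.58 ± 0.50 (SE, n = 2 each; limma adjusted p = 0.0013). It was −2.95 after TMM rescaling (adjusted p = 0.00055), −2.78 in edgeR (adjusted p = 0.0022) and −3.12 in DESeq2 (adjusted p = 3.3e-06), and it stayed called without each library in turn, between −3.32 and −1.85. Where a 0 h library was left out, the lone library of that group was assumed to vary like the other groups. Grin1 was at 0 and 1.76 units in KO and at 7.90 and 12.9 in control, from 0 to 6 reads, and was too low to test.

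Fbxl12os was the transcript that was higher in KO at 0 h. It lies beside Fbxl12, an F-box subunit of a ubiquitin ligase, without overlapping it. Fbxl12os had 52.2 and 95.2 units in KO (31 and 54 reads), against 1.32 and 16.2 in control (1 and 5 reads). The groups did not overlap, and the log2 difference was 3.50 ± 0.87 (adjusted p = 0.013). The summed reads give a ratio of 13.0, with an exact binomial 95% interval of 5.75 to 36.5 that covers counting error only. The call was lost after TMM rescaling (3.05; adjusted p = 0.054) and without KO 0 h replicate 1 (3.93; adjusted p = 0.078), KO 0 h replicate 2 (3.08; 0.210) or control 0 h replicate 1 (2.06; 0.209). Fbxl12 had 0 and 10.6 units in KO and 7.90 and 32.3 in control.

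The other 32 transcripts did not pass the test at 0 h. The 34 differences had a median of 0.30, against 0.44 over all genes, and 25 of 34 (73.5%) were above 0, against 77.9% of all genes. After TMM rescaling the median was −0.13, against 0.013, and 15 of 34 were above 0, against 50.9% of all genes. Uchl1os came closest to a call, with a log2 difference of 1.33 ± 0.42 (adjusted p = 0.056). Without control 0 h replicate 2, the library offset from its partner, 7 transcripts were called at 0 h and 1136 of all genes.

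At 4 h, limma called 0 of the 34 transcripts, with 2 lower at an unadjusted p below 0.05 (58 of all 6952 genes were); over all genes 0.748% were called higher and 0.0% lower (0.69% and 0.245% after TMM rescaling). Grin1os had 24.7 and 21.3 units in KO and 72.8 and 58.7 in control, again without overlap (log2 difference −1.47 ± 0.50; adjusted p = 0.206). It was called lower at 4 h after TMM rescaling (−1.76; adjusted p = 0.032) and in DESeq2 (−1.81; adjusted p = 0.0024) but not in edgeR (−1.50; adjusted p = 0.150). DESeq2 also called Man2c1os, Peg3os and Phtf1os lower, 4 in all, where it called 0.874% of genes lower. edgeR called 0 of the 34 and 0.0288% of genes lower. The median difference of the 34 was −0.02, against 0.29 over all genes, and 17 of 34 were above 0, against 71.7% of all genes. After TMM rescaling the median was −0.31, 10 of 34 were above 0, against 49.8% of all genes, and 10 were lower at an unadjusted p below 0.05, where 345 of the 6952 genes were. DESeq2 also had 10 lower at an unadjusted p below 0.05, where 346 of all genes were.

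**Figure D3:**
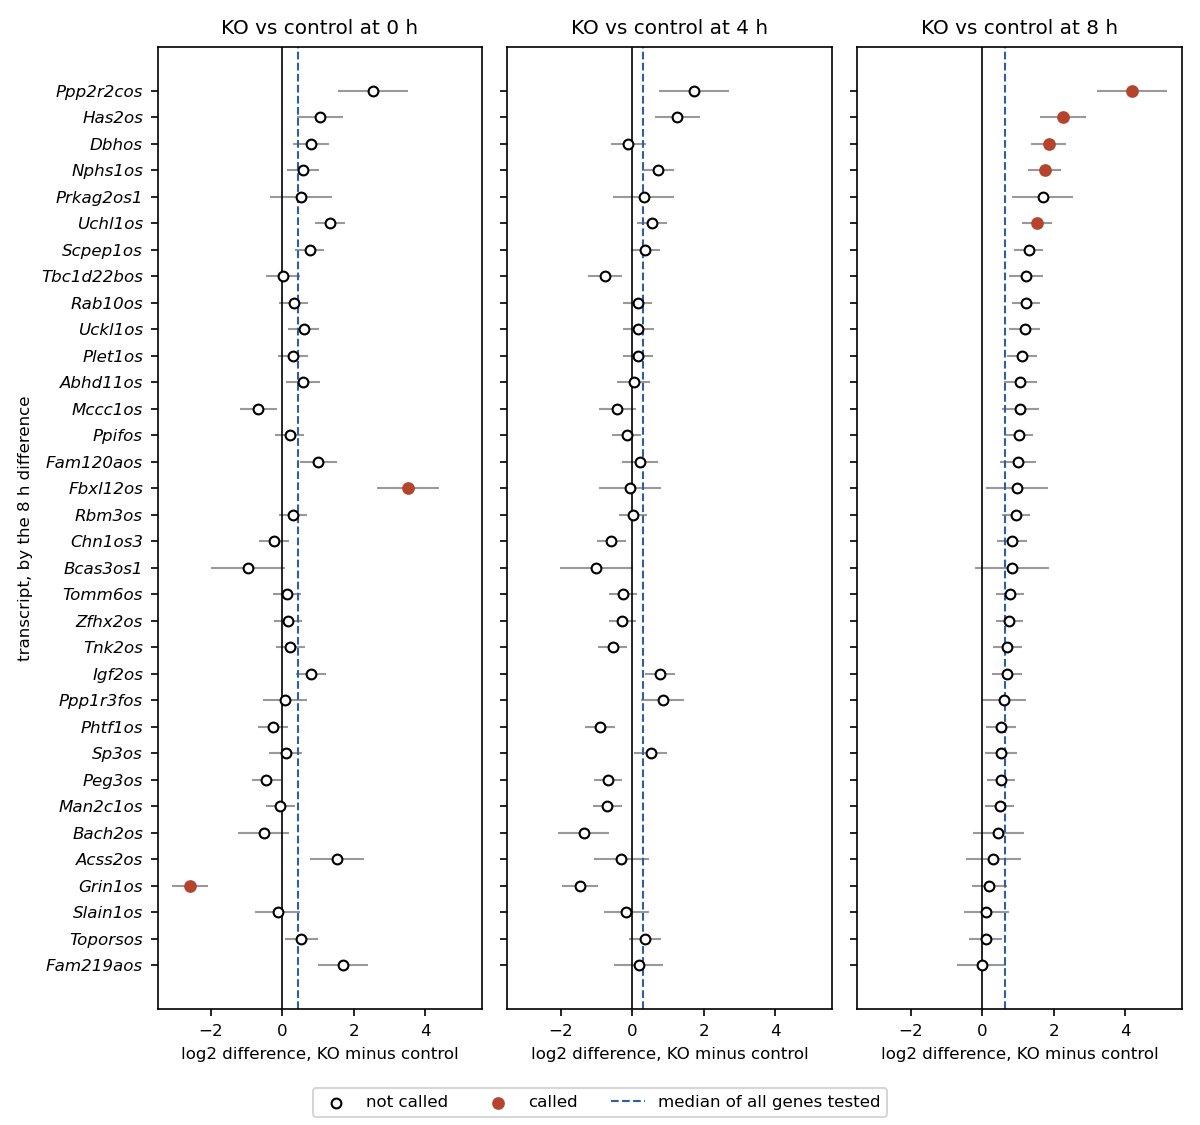
Log2 difference, KO minus control, of the 34 tested transcripts at 0, 4 and 8 h on the deposited scale (points; bars are the SE); filled points have a limma adjusted p below 0.05 and the dashed line is the median of all 6952 genes (0.44, 0.29 and 0.63). Grin1os lies at −2.58 at 0 h and 0.20 at 8 h, and the 5 filled points at 8 h run from 1.53 to 4.20.

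After 8 h, 5 of the 34 transcripts were called higher in KO (14.7%) and 0 lower. Over all genes 4.88% were called higher and 0.0144% lower (339 and 1 genes). After TMM rescaling 1.44% and 0.273% of all genes were called higher and lower, or 100 and 19 genes. At an unadjusted p below 0.05, 0 of the 34 were lower, where 23 of all genes were. edgeR and DESeq2 also called 0 of the 34 lower, where they called 0.0144% and 0.345% of genes lower. The 5 were Ppp2r2cos, Has2os, Dbhos, Nphs1os and Uchl1os. The median difference of the 34 was 0.89, against 0.63 over all genes, and 33 of 34 were above 0, against 85.4% of all genes. Among 330 other tested genes with noncoding accessions only, the median was 0.96 (0.32 after TMM rescaling), and 43 were called higher. The higher median was therefore not particular to antisense transcripts. After TMM rescaling 23 of 34 were above 0, against 49.5% of all genes. The median was then 0.28, against −0.0045 over all genes, and 1 of the 5 calls, Ppp2r2cos, was left. Most of the 34 were higher in KO 8 h replicate 2 than in replicate 1, and without replicate 2 the count was 0 of 34, as it was without control 8 h replicate 1 or 2. Over all genes 46, 77 and 212 were called in these 3 settings. Without KO 8 h replicate 1, control 0 h replicate 1 or control 0 h replicate 2, 12 were called, beside 776, 1020 and 1008 of all genes.

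Ppp2r2cos lies in introns of Ppp2r2c, which encodes a brain-type regulatory subunit of protein phosphatase 2A. At 8 h it had 19.8 and 23.9 units in KO (31 and 19 reads), against 0.540 and 0 in control (1 read and none). The groups did not overlap at the earlier times either: it had 25.3 and 8.82 units in KO and 6.58 and 0 in control at 0 h, and 17.9 and 31.0 in KO and 4.37 and 9.27 in control at 4 h. The log2 difference at 8 h was 4.20 ± 0.99 (adjusted p = 0.0069), and 4.24 after TMM rescaling (adjusted p = 0.024). The ratio of summed reads was 86.0, with an exact binomial 95% interval of 14.7 to 3464 for counting error only. Ppp2r2c also had higher values in KO, with 64.0 and 63.5 units in KO and 9.22 and 22.6 in control at 0 h (log2 difference 2.06 ± 0.61; adjusted p = 0.044; 1.62 and adjusted p = 0.104 after TMM rescaling). That call was lost on leaving out 9 of the 12 libraries, with differences of 1.46 to 2.07 there. Over all 12 settings the differences were 1.46 to 2.66.

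Nphs1os and its sense gene were high in the same libraries. Nphs1os had 78.4 and 141 units in KO and 30.3 and 31.2 in control at 8 h (log2 difference 1.74 ± 0.45; adjusted p = 0.015). Nphs1 had 201 and 351 units in KO and 47.6 and 68.2 in control (log2 difference 2.20 ± 0.41; adjusted p = 0.00052). Uchl1os is the antisense RNA of Uchl1, a neuronal deubiquitinase, and in mouse it is known to raise translation of the Uchl1 mRNA through an inverted SINE B2 repeat. Uchl1os had 201 and 474 units in KO and 92.4 and 122 in control at 8 h (log2 difference 1.53 ± 0.42; adjusted p = 0.022), and Uchl1 had 37.0 and 39.0 in KO and 7.57 and 10.8 in control (1.95 ± 0.58; adjusted p = 0.038). In both pairs the KO and control libraries did not overlap at 8 h for either gene. The Uchl1 call was lost on leaving out any 4 h or 8 h library, with differences of 1.72 to 2.19. The Nphs1 call was lost without KO 8 h replicate 2 (1.80) or control 8 h replicate 1 (1.95).

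Has2os and Dbhos had sense genes with few reads. Has2os overlaps Has2, the main hyaluronan synthase, and had 10.2 and 32.7 units in KO and 4.86 and 1.81 in control at 8 h (log2 difference 2.26 ± 0.63; adjusted p = 0.026). Has2 had 0 and 1.26 units in KO and 1.62 and 2.26 in control. Dbhos, next to the dopamine beta-hydroxylase gene Dbh, had 32.5 and 52.9 units in KO and 9.73 and 11.7 in control (log2 difference 1.86 ± 0.50; adjusted p = 0.019), while Dbh had 1 read in the 12 libraries together. Grin1os at 8 h had 41.4 and 49.1 units in KO and 37.3 and 41.1 in control, with the nearest KO and control libraries at 41.4 and 41.1 (log2 difference 0.20 ± 0.50; adjusted p = 0.818; −0.46 after TMM rescaling, adjusted p = 0.640).

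**Figure D4:**
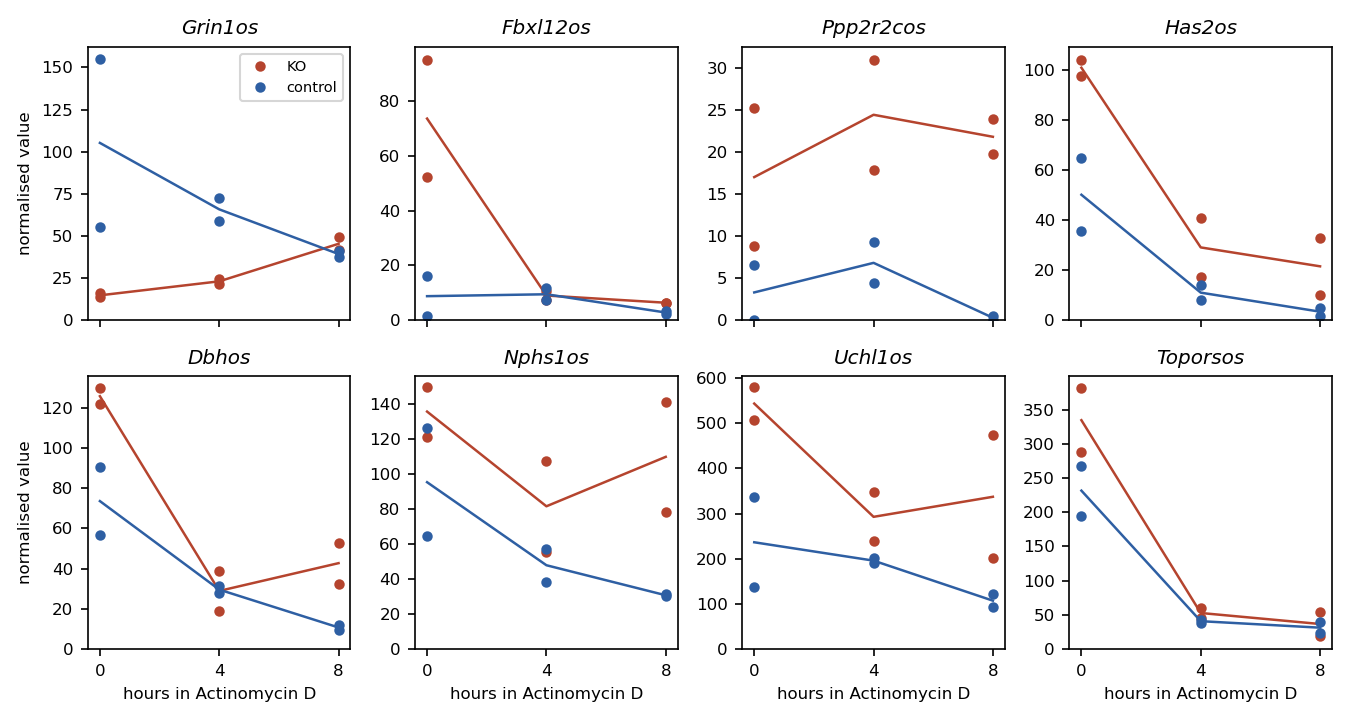
Normalised value (vertical) of 8 transcripts at 0, 4 and 8 h in Actinomycin D (horizontal); points are libraries, lines join the group means, KO in red and control in blue. Grin1os runs upward in KO (means 14.7, 23.0 and 45.3) and downward in control (105, 65.7 and 39.2), and Toporsos drops in both by 4 h.

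With transcription stopped, a decline was called for 14 of the 34 transcripts in KO and 23 in control. Relative to 0 h, the median of the 34 was 47.9% at 4 h and 60.7% at 8 h in KO, and 59.0% and 25.7% in control, while the median over all genes was 61.8% and 45.1% in KO and 66.8% and 36.3% in control. The 8 h value in KO differed between its libraries, with a median over the 34 of 39.5% of the 0 h mean in replicate 1 and 66.9% in replicate 2, against 21.98% and 30.4% in the 2 control libraries. At 4 h the medians were 40.7% and 58.1% in the KO libraries and 54.3% and 59.6% in the control libraries. A straight line per genotype gave the 14 declines in KO (41.2%), where 37.3% of all genes were called lower and 0.0288% higher. It gave the 23 declines in control (67.6%), where 52.1% of all genes were called lower and 0.446% higher. Of the declines, 12 were called in both genotypes, which is 12 of the 14 in KO and 12 of the 23 in control. The same overlap over all genes was not counted. A call in 1 genotype only is not a difference between genotypes. When the slopes were compared directly, limma called 0 of the 34. After TMM rescaling, which sets each library's typical gene level, 2 transcripts were called higher and 1 lower with time in KO (2.78% and 3.77% of all genes) and 2 higher and 4 lower in control (8.24% and 8.86%). The median gene changed by −0.14 per hour in KO and −0.17 in control on the deposited scale (log2), and the median of the 34 by −0.09 in KO and −0.21 in control.

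Toporsos, Phtf1os and Has2os were among the steepest declines in both genotypes. Toporsos starts within 1 kb of Topors, a ubiquitin and SUMO ligase, and had 288 and 381 units at 0 h, 45.4 and 60.1 at 4 h and 19.1 and 54.2 at 8 h in KO. In control it had 195 and 268, then 42.9 and 38.6, then 23.2 and 39.3 units. Its slope was −0.41 ± 0.07 per hour in KO (adjusted p = 8.5e-05) and −0.36 ± 0.07 in control (adjusted p = 0.00016), and in KO it stayed called after TMM rescaling (−0.27; adjusted p = 0.026). Topors declined with it, to 13.1% of its 0 h mean at 8 h in KO and 5.48% in control. Phtf1os was at 17.0% of its 0 h mean at 8 h in KO and 9.03% in control, and Has2os at 21.3% in KO and 6.66% in control; both kept a called decline in control after TMM rescaling (−0.25 and −0.30 per hour).

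A middle group had called declines in both genotypes on the deposited scale. Zfhx2os, Rab10os, Ppifos, Plet1os, Tnk2os, Sp3os, Uckl1os, Dbhos and Bach2os had called slopes of −0.23 to −0.15 per hour in KO and −0.35 to −0.23 in control. The median gene changed by −0.14 in KO and −0.17 in control. After TMM rescaling none of this group was called in KO, and Rab10os and Plet1os were called lower in control. The KO call of each except Sp3os was lost on leaving out at least 1 library, as was the control call of Bach2os. The sense genes of this group include Rab10, a vesicle-traffic GTPase, Ppif, the mitochondrial cyclophilin, and Sp3, a zinc-finger transcription factor. Rab10os had 131 and 286 units in KO and 78.4 and 86.7 in control at 8 h, against 482 and 506 in KO and 275 and 569 in control at 0 h. Rab10 and Sp3 also had called declines in both genotypes. Fam219aos and Fbxl12os were called lower with time in KO and not in control. The KO calls of Rab10, Sp3, Fam219aos and Fbxl12os were also lost on leaving out at least 1 library.

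Tomm6os, Scpep1os and Igf2os had 8 h means near their 0 h means in KO. So did Mccc1os (97.9%), Acss2os (98.1%) and Bcas3os1 (108.8%). Tomm6os, beside the gene of a small subunit of the mitochondrial import channel, was at 97.4% of its 0 h mean at 8 h in KO and 54.2% in control. Scpep1os was at 107% in KO and 57.9% in control. Its KO libraries had 1950 and 2204 units at 0 h and 1051 and 3399 at 8 h. The 107% is therefore a mean of 2 unlike libraries. The KO 8 h libraries of Tomm6os were also apart, at 1332 and 2403 units. Igf2os, antisense to the imprinted growth factor gene Igf2, was at 99.6% in KO and 100.3% in control, and it had 78.4 and 166 units in KO and 71.3 and 69.1 in control at 8 h. After TMM rescaling Tomm6os was called higher with time in KO (0.14 per hour; adjusted p = 0.020) and Igf2os in control (0.18; adjusted p = 0.0083). Scpep1os, Bcas3os1 and Fam120aos are named after their values were seen. Abhd11os, Chn1os3, Man2c1os, Mccc1os, Nphs1os, Peg3os, Rbm3os, Slain1os, Tbc1d22bos and Uchl1os had called declines in control, of −0.23 to −0.12 per hour, and no call in KO; of these, Abhd11os, Man2c1os, Rbm3os and Uchl1os had a slope above 0 in control after TMM rescaling. Acss2os had no called slope on the deposited scale and was called higher with time in control after TMM rescaling (0.31 per hour; adjusted p = 0.022).

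**Figure D5:**
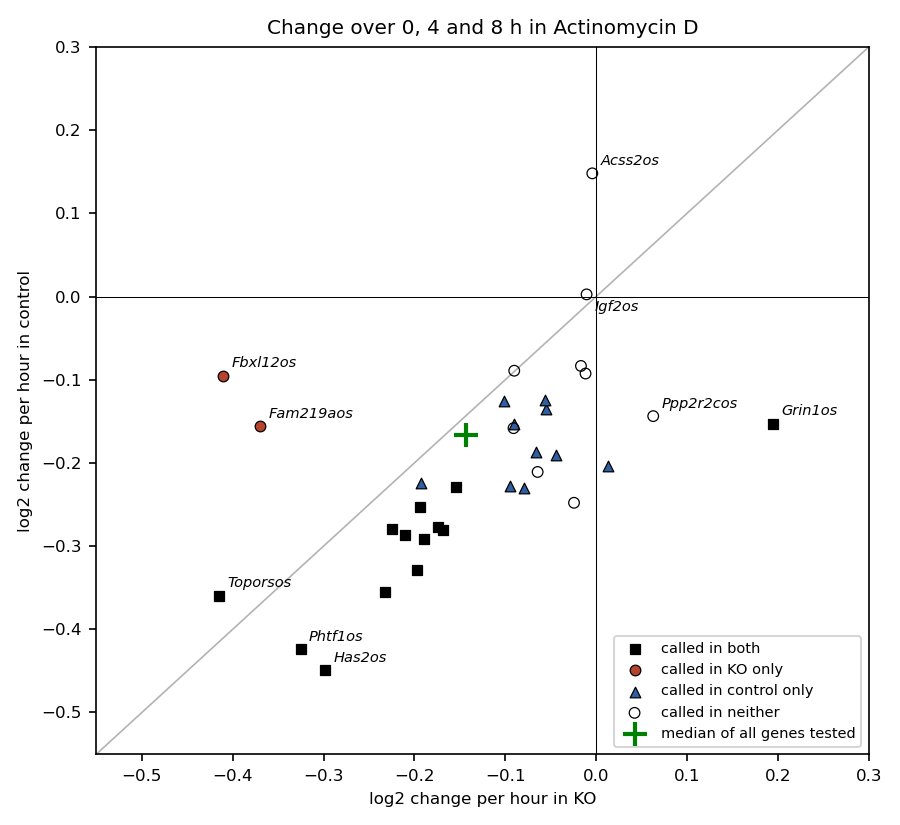
Log2 change per hour in KO (horizontal) and in control (vertical) of the 34 tested transcripts on the deposited scale; symbols give where the slope was called, the cross is the median of all 6952 genes and the grey line marks equal slopes. Grin1os is at 0.20 in KO and −0.15 in control, and 28 of the 34 points lie to the right of the line.

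Grin1os was the 1 transcript of the 34, and 1 of 2 genes in all, called higher with time in KO on the deposited scale. Its slope was 0.20 ± 0.06 per hour in KO (adjusted p = 0.014) and −0.15 ± 0.06 in control (adjusted p = 0.036). After TMM rescaling the KO slope was 0.33 (adjusted p = 0.00023) and the control slope 0.02 (adjusted p = 0.806). The call in KO was lost without KO 0 h replicate 1 (adjusted p = 0.073), KO 8 h replicate 1 (0.052) or KO 8 h replicate 2 (0.057), with slopes of 0.18 to 0.21 over the 12 libraries left out in turn. The call in control was lost without control 0 h replicate 2 (−0.08; adjusted p = 0.392), control 8 h replicate 1 (−0.14; 0.147) or control 8 h replicate 2 (−0.16; 0.096), and without control 0 h replicate 1 the slope was −0.24. Its recovered reads in KO were 8 and 9 at 0 h, 44 and 22 at 4 h and 65 and 39 at 8 h, and in control 42 and 48, 100 and 76, and 69 and 91.

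The slopes of the 2 genotypes were compared directly as a genotype by time interaction. limma called 0 of the 34 transcripts and 0.0% of all genes in either direction. At an unadjusted p below 0.05, 2 of the 34 were higher and 0 lower, where 223 of the 6952 genes were higher and 127 lower. edgeR called 0 of the 34 and 0.0% of genes, and DESeq2 called 1 of the 34, Grin1os (0.33 ± 0.08 per hour; adjusted p = 0.042), among 4 genes in all (0.0575%). For Grin1os limma gave 0.35 ± 0.09 per hour (adjusted p = 0.672) and edgeR 0.38 (adjusted p = 0.259). The median difference over the 34 was 0.08 per hour, against 0.02 over all genes, and 28 of 34 were above 0 (82.4%), against 59.1% of all genes. After TMM rescaling the median was 0.05, against −0.003 over all genes, with 27 of 34 above 0, against 48.8% of all genes. Over the 330 other tested noncoding genes the median was 0.06, and 0.04 after TMM rescaling.

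The ratio of antisense to sense reads does not depend on the library scale, apart from the pseudocount of 1. It was compared in the 18 pairs in which both genes were tested, as log2((antisense + 1)/(sense + 1)), averaged over 0, 4 and 8 h, KO minus control. It was lower in KO in 12 pairs and higher in 6, with a median of −0.26. The average hides a change of sign with time. Most pairs were below 0 at 0 and 4 h, and most were above 0 at 8 h. At 0, 4 and 8 h the difference was −0.18, −0.53 and 0.81 for Scpep1os and −1.28, −0.61 and 0.75 for Igf2os. Toporsos went the other way, with 0.05, 0.30 and −1.55. Nphs1os to Nphs1 was the 1 pair with a two-sided exact permutation p below 0.05, with a log2 ratio of −1.88, −1.44 and −1.33 in KO and −1.23, −0.87 and −0.87 in control at 0, 4 and 8 h. Its difference of −0.56 had an exact permutation p = 0.0093, which is the smallest p that the 216 arrangements allow, and 0.167 after Benjamini-Hochberg adjustment over the 18 pairs. Since the strand setting is not known, the 2 names in a ratio could be exchanged; turned round, it was higher in KO in 12 pairs and lower in 6, with a median of 0.26, and the Nphs1 difference was 0.56. Uckl1os to Uckl1, a uridine-cytidine kinase, was higher in KO by 0.74 (exact permutation p = 0.065). Mccc1os to Mccc1, of leucine breakdown, was lower by 0.98 on average (exact permutation p = 0.296). The Mccc1os differences at 0, 4 and 8 h were −4.15, −0.16 and 1.37. Their 0 h value depends on the pseudocount, since Mccc1 was at 0 in control 0 h replicate 1. In the Mccc1 pair the sense gene was called at 0 h, with Mccc1 at 32.0 and 38.8 units in KO and 0 and 9.69 in control (log2 difference 3.47 ± 0.80; adjusted p = 0.0075). The Mccc1 call was lost without KO 0 h replicate 1 (3.61; adjusted p = 0.058), KO 0 h replicate 2 (3.34; 0.082) or control 0 h replicate 1 (1.76; 0.208). Mccc1os had 32.0 and 88.2 units in KO and 43.5 and 168 in control at that time.

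The sense genes and other noncoding genes give the setting for these counts. Of the 34 sense genes 18 were tested, and 2 (Mccc1 and Ppp2r2c) were called higher in KO at 0 h and 3 (Nphs1, Topors and Uchl1) at 8 h. After TMM rescaling Mccc1 (3.01; adjusted p = 0.049) and Nphs1 (1.55; adjusted p = 0.0037) were still called. The Topors call was lost without KO 8 h replicate 1 (1.51) or 2 (1.78), or without control 8 h replicate 1 (1.31). Among 330 other tested genes with noncoding accessions only, the calls of higher values in KO numbered 18 before Actinomycin D, 12 at 4 h and 43 at 8 h. After TMM rescaling they numbered 8, 9 and 14, with 4, 3 and 3 calls of lower values. On the deposited scale the median differences of these 330 were 0.45, 0.10 and 0.96 at 0, 4 and 8 h. For the 34 antisense transcripts they were 0.30, −0.02 and 0.89. Of 12 antisense RNAs that have a name of their own, 4 were tested. Tsix, the antisense RNA of Xist, had 394 and 398 units in KO and 107 and 213 in control at 0 h (log2 difference 1.39 ± 0.40; adjusted p = 0.039; not called after TMM rescaling). Kcnq1ot1, which silences the imprinted Kcnq1 domain, had 190 and 171 units in KO and 30.3 and 39.3 in control at 8 h (2.35 ± 0.41; adjusted p = 0.00017), and it was called higher at 4 h as well. Of the NEXT complex genes Skiv2l2 was tested beside Zcchc8 and was not called between genotypes. Rbm7 is listed at 0 in every library, as are Exosc1, Exosc8 and Exosc10 of the exosome, and these listed zeros were not read as absence of the RNA. The 14 tested genes of the exosome and its other adaptors had log2 differences of −0.11 to 1.63 at 0 h and −0.34 to 1.76 at 8 h.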

How the data were processed

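The deposited table gives 1 normalised signal value per RefSeq transcript and library, and per the submitters' processing notes TopHat2 2.1.1, HTSeq 0.6.0, DESeq2 and mm9 were used. Every value was a whole multiple of its library's value of 1 read (tolerance 0.001), so the authors' values are read counts divided by 1 factor per library, and whole reads were recovered. The table held 0 spike-in rows, and no source used here says how the factors were set. Of 33896 rows, 978 repeats were dropped, and rows were summed by symbol.

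log2(value + 1) of the 6952 genes with a mean of at least 10 was fitted with limma 3.58.1 in R 4.3.3 (trend and robust options, 6 groups), with Benjamini-Hochberg adjustment over all 6952 and calls at an adjusted p below 0.05. Slopes are straight lines over 0, 4 and 8 h. edgeR 4.0.16 (quasi-likelihood) and DESeq2 1.42.0 on the recovered reads, TMM rescaling, other pseudocounts and filters, a replicate block and leaving out each library were alternatives. The fit was tested on simulated data, with the same spread beyond counting error for every gene and no offset between replicates or genotypes. That test does not cover the offsets between libraries described above. Differences are on the log2(value + 1) scale, which understates changes of low genes.

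The transcripts and gene lists were chosen with earlier results of these data known. The rule for names took Grin1os, every antisense transcript called in any comparison on either scale, their sense genes and Zcchc8; not every such sense gene is described, and others are named by position or level, after their values were seen. Other samples, 47 in all, were not used here. Exact intervals cover counting error only, and PCR reads without molecular identifiers are not independent molecules.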

Additional observations from a re-analysis of the deposited data

How the results depend on the processing

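After TMM rescaling 1 transcript was called at 0 h, 1 at 4 h, 1 at 8 h, 3 for the slope in KO and 6 for the slope in control, against 2, 0, 5, 15 and 23 on the deposited scale; over all genes these were 121, 65, 119, 455 and 1189 calls, against 299, 52, 340, 2598 and 3651. DESeq2, with size factors of its own, called 4 at 4 h, 1 at 8 h, 6 for the slope in KO, 9 for that in control and 1 for the difference in slope, with 145, 176, 636, 1242 and 4 calls over all genes. With no filter on low values 4 were called at 0 h and 1 at 8 h, with limma's trend and robust options off 1 at 8 h, and from the 4 libraries of that time alone 1 at 4 h. Over all genes the same settings gave, in this order, 353, 94, 89 and 294 calls. With a pseudocount of 4, 2 antisense to sense ratios had a p below 0.05, against 1. For these counts the cause was not tested.

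Same-numbered libraries had correlated deviations of −0.07 to 0.12, so the numbers were not taken to pair libraries. The replicate block gave 3 called transcripts at 0 h, 0 at 4 h and 11 at 8 h. Over all genes it gave 489, 113 and 756 calls at these times. For the slopes in KO and control it gave 16 and 23, with 2951 and 3858 over all genes. For the difference in slope it gave 0, as over all genes, and it left 1 ratio with p below 0.05. The replicate block with TMM rescaling gave 1 at 4 h, 1 at 8 h and 3 and 7 for the slopes, where all genes gave 83, 135, 424 and 1176.

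Leaving out 1 library at a time gave 1 to 7 called transcripts at 0 h, 0 to 1 at 4 h, 0 to 12 at 8 h, 5 to 19 and 14 to 28 for the slopes in KO and control, 0 to 1 for their difference and 1 to 2 ratios. Over all genes the same gave 54 to 1136 calls at 0 h, 12 to 194 at 4 h and 46 to 1020 at 8 h. For the slopes the calls over all genes ranged from 965 to 3146 in KO and from 1872 to 4532 in control. For the difference in slope they ranged from 0 to 5. The slope in control, called lower on the deposited scale, was above 0 for 7 genes after TMM rescaling, with or without the block, and in DESeq2: Abhd11os (0.019 and 0.014 per hour), Fam120a (0.054 and 0.056), Grin1os (0.021 and 0.014), Man2c1os (0.051 and 0.045), Peg3 (0.057 and 0.050), Rbm3os (0.041 and 0.035) and Uchl1os (0.049 and 0.043).

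Of 65 to 66 single-gene results, edgeR left 63 on the same side of the threshold, either pseudocount 64 and the replicate block 66, while TMM rescaling left 14 and DESeq2 18. The 3 symbols without a sense gene were not tested, so leaving them out changed none of these counts. Some printed values rest on 0 to 5 reads (Fbxl12os in control at 0 h, Ppp2r2cos in control at 8 h), and changes of the low transcripts are limited by depth.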
